A study of Mus musculus with 3 samples.

Results

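The circadian clock and output genes followed here were 10 listed symbols among the 17992 in the counts: the activator gene Arntl (also called Bmal1), the period genes Per1, Per2 and Per3, the REV-ERB genes Nr1d1 and Nr1d2, the repressor genes Ciart and Bhlhe41, and the output factor genes Dbp and Tef. They were listed by name, and all 10 were counted in every library. Counts came from 3 brain RNA libraries of adult wild-type C57BL/6 mice, 1 per group and so with no replicate of any group. The AGNHW library came from mice given AGNHW, a traditional Chinese remedy whose full name is Angong Niuhuang Wan, at 3 mg per g per day, the Vehicle library from the middle cerebral artery occlusion model, in which a main forebrain artery is blocked, and the Sham library from sham mice. The labels mark treatment as given for AGNHW only, and they state the occlusion for Vehicle without repeating it for AGNHW. The series asks whether AGNHW changes neurogenesis and angiogenesis after ischaemia. The sources used here do not give the hour at which each brain was taken, the brain region or the number of mice behind a library, and with 1 library per group the hour and the group cannot be told apart.

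The clock is a loop of transcription factors that almost every cell holds. The ARNTL protein pairs with CLOCK or NPAS2 on E-boxes and drives the Per, Cry, Nr1d, Ciart, Bhlhe41 and Dbp genes, and PER and CRY proteins then repress that pair. REV-ERB proteins hold Arntl down through elements that ROR proteins activate, so that Arntl messenger RNA normally peaks when Dbp and Nr1d1 are low. DBP and TEF are PAR bZIP factors that carry the rhythm to other genes through D-boxes, and in mouse tissues Per1 also answers glucocorticoids and neuronal activity without the loop.

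Promoter windows of 300 bases, 250 before and 50 after an annotated start, were taken from RefSeq on GRCm38.p6 and were found for 9 of the 10 genes, with no window for Per2. The counts were made on mm9, so these positions belong to the RefSeq build alone. Windows were searched on both strands for the E-box CACGTG, the E-box variant CACGTT, the D-box letters TTATGTAA and TTATGCAA, and the RORE cores TAGGTCA and TGGGTCA. No matches overlapped one another. The 5 windows shown hold the matches that distinguish the loop's arms, with matches in capitals and each sequence read along its gene.
Ciart (chr3:95882179-95882478, minus strand, 3 E-boxes): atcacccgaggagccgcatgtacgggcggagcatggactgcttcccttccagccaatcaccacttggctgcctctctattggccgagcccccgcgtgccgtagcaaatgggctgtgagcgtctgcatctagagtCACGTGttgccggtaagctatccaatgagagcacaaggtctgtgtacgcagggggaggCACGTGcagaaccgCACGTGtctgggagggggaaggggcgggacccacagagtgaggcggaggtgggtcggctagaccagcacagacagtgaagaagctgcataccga
Per1 (chr11:69098699-69098998, plus strand, the first of 2 annotated starts, an E-box and then a D-box of the second kind): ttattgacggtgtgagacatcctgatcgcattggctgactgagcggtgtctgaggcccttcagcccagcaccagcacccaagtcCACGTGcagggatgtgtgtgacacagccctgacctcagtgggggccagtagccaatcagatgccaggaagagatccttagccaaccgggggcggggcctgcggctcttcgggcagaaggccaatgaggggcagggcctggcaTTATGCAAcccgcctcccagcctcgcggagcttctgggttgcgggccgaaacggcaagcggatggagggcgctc
Nr1d1 (chr11:98775328-98775627, minus strand, an E-box variant on the opposite strand): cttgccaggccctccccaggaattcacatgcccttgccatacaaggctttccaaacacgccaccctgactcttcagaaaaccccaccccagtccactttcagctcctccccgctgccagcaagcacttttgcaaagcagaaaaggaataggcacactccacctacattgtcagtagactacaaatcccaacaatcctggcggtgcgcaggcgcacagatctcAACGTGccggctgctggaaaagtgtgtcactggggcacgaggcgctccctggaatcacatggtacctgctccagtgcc
Per3 (chr4:151044616-151044915, minus strand, 2 D-boxes): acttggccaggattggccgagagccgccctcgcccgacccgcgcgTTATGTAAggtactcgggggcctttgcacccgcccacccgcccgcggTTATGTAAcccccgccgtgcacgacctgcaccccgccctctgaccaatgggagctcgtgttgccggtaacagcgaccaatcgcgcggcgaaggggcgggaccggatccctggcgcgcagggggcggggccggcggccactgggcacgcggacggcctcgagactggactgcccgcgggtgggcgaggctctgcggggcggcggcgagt
Arntl (chr7:113207261-113207560, plus strand, the later of 2 annotated starts, a RORE core past the start): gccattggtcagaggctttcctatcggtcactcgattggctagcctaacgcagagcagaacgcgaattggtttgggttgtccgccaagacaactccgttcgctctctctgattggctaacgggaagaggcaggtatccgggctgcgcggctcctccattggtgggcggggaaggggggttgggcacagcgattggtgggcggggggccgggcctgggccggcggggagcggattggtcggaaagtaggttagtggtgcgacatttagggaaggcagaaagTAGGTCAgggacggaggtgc
Ciart's E-boxes began 116, 58 and 44 bases before the start (positions -116, -58 and -44). Of all 32851 windows of this length, 7.15% held an E-box and 29 held 3 or more. The Per3 window carried TTATGTAA, found in 0.938% of windows, at -205 and -158. The RORE core TAGGTCA, in 2.61% of windows, lay at position 31 of the Arntl window. Bhlhe41 had an E-box at -153, and the pair of Tef windows had one at -127 and at -138. No match was found for Nr1d2 or Dbp, which says only that these letters are not in those windows.

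Levels are given as CPM, read counts set on a common library size, with TMM scaling for unequal composition. Totals were 18184691 counts for AGNHW, 15718594 for Vehicle and 18286151 for Sham. Together the 10 genes held 1037 CPM in AGNHW, 1161 CPM in Vehicle and 1075 CPM in Sham. Levels of different genes were set side by side per kilobase, once by all annotated exon bases of a gene and once by its longest transcript. Tef had the highest level in every library by both lengths, at 57.3, 66.7 and 56.3 CPM per kb of exon in AGNHW, Vehicle and Sham. The places below it depended on the length used. Per kb of exon, Nr1d1 came next, at 43.2, 48.8 and 39.2 CPM in the same order, and per kb of longest transcript Dbp stood above it in Vehicle (60.1 against 55.2 CPM) and Sham (62.3 against 44.3 CPM). Arntl was lowest per kb of exon, at 2.90, 2.40 and 3.26 CPM, and Per2 was lowest per kb of longest transcript, at 4.28, 3.76 and 6.02 CPM. Dbp in AGNHW was below Per1 per kb of exon (27.3 against 32.2 CPM) and above it per kb of longest transcript (44.4 against 38.8 CPM). Per kb of exon, neighbours whose counting intervals overlapped were Dbp with Per1 and Per2 with Per3 in Vehicle, and Nr1d1 with Dbp and Bhlhe41 with Per2 in Sham, and none overlapped in AGNHW.

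**Figure D1:**
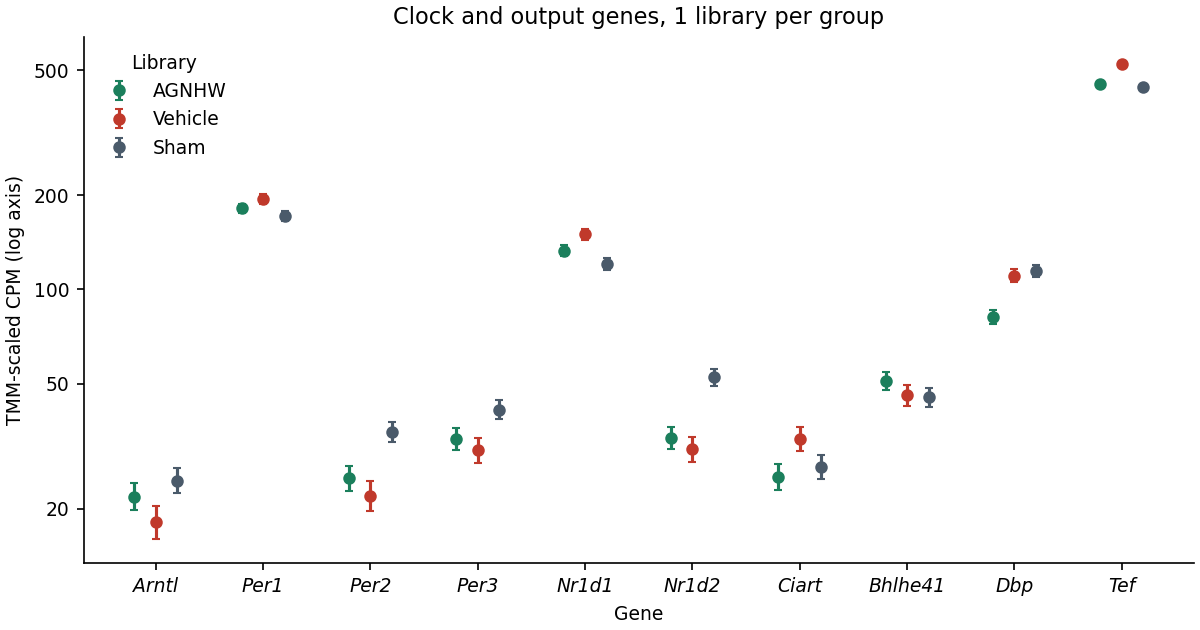
TMM-scaled CPM of the 10 clock and output genes (log axis) in the AGNHW, Vehicle and Sham libraries, with 95% counting intervals as bars and 1 library per point. Per2 and Nr1d2 lay lower in AGNHW and Vehicle than in Sham, and Dbp was lower in AGNHW, at 81.6 CPM, than in Vehicle and Sham, at 110 and 115 CPM.

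With no replicates there is no test of any condition, and the words higher and lower describe these libraries alone. The size rule asked for 3 things of a gene, namely a mean of 1 CPM or more, a ratio of 1.5 or more in either direction, and an exact 95% interval of that ratio without 1 in it. Such intervals cover counting error only. All 10 genes met the 1 CPM minimum. Log2 ratios over all genes trended with the length and GC content of the transcript, so each ratio was computed again with that trend taken out, and is then called corrected. The trend held 47.0% of the variance of the log2 ratio between Vehicle and Sham over 9941 genes of at least 10 CPM, 26.9% for AGNHW against Vehicle and 38.2% for AGNHW against Sham.

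All 7 brain marker genes were counted, with a sum of 10936 CPM in AGNHW, 11693 CPM in Vehicle and 10079 CPM in Sham. Mbp was the largest part of that sum, at 5216, 5751 and 4000 CPM in the same order. The markers went both ways, and 4 of the 7 had a Vehicle to Sham ratio under 1. Gfap alone passed the size rule there, as lower, at 0.553 (0.532 to 0.575), where 14.2% of all genes were lower. The Vehicle library stood apart by pituitary transcripts, which summed over 7 counted markers to 3745 CPM, against 4.60 CPM in AGNHW and 4.41 CPM in Sham, where Gh, Prl and Ghrhr were at 0. Red cell genes summed to 65.1, 163 and 52.8 CPM and choroid plexus genes to 652, 960 and 535 CPM in AGNHW, Vehicle and Sham. Ttr alone held 610, 914 and 499 CPM of the choroid plexus sums. Of the 6 choroid plexus genes, 3 passed as higher in Vehicle than in Sham, where 8.66% of all genes did, and 2 had a ratio under 1. Of 10 markers of the suprachiasmatic nucleus, the central clock of the hypothalamus, 8 were counted, and they summed to 82.6, 97.3 and 92.1 CPM in the same order. Of the 7 compared, Syt10 and Prokr2 passed as lower in Vehicle than in Sham, where 14.2% of all genes did, and Syt10 also in AGNHW against Sham, where 5.47% did. Syt10 had 9 counts in Vehicle and 40 in Sham, and Prokr2 had 15 and 45. Avp had a Vehicle to Sham ratio of 1.30, and 0.947 (0.846 to 1.06) after correction. Six6, too low to be compared, had 21 counts in Vehicle and 6 in Sham. Pineal markers were counted for 2 of 7 genes and summed to 3.997, 5.33 and 5.26 CPM. The part of these tissues in the clock gene ratios was not tested.

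Vehicle was set against Sham to describe the clock genes after occlusion. Nr1d2 and Per2 were the clock genes that passed the size rule, both lower in Vehicle, while Per1, Nr1d1, Ciart and Tef lay slightly above their Sham level. In all, 2 of 10 were lower, where 14.2% of the 15558 genes compared were lower, and 0 were higher, where 8.66% were higher. In either direction 22.8% of all genes passed, so the count of clock genes is close to that of genes in general. After correction 1 of 10 was lower and 0 higher, against 7.16% lower and 4.54% higher of all genes, or 11.7% together. With plain CPM the split over all genes moved from 1348 higher and 2207 lower to 890 and 2836, and the clock calls were the same. The median log2 ratio of the 10 genes was -0.015, against 0.012 over all genes compared, and 5 of the 10 had a ratio under 1. A bulk library cannot tell fewer cells of a type from less RNA per cell.

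Nr1d2, a REV-ERB repressor, had 31.0 CPM in Vehicle and 52.6 CPM in Sham (471 and 989 counts). Its ratio was 0.589 (95% interval 0.527 to 0.658), and 8.60% of all genes had a lower one. Its transcript is long and poor in GC (4663 bases, 41.8%), and its corrected ratio of 0.821 (0.734 to 0.917) was inside the 1.5-fold limit. Nr1d1, its paralogue and the other REV-ERB gene, had 150 CPM in Vehicle and 121 CPM in Sham, a ratio of 1.24 (1.17 to 1.32). The corrected ratio of Nr1d1 was 1.01 (0.951 to 1.07). The quotient of Nr1d1 to Nr1d2 counts, which needs no scaling between libraries, was 3.95 (3.62 to 4.32) in AGNHW, 4.85 (4.39 to 5.36) in Vehicle and 2.29 (2.13 to 2.47) in Sham. The balance of the REV-ERB pair thus differed from Sham in both other libraries by more than counting error, in a pair of unequal length and GC content. After correction the ratios to Sham of Nr1d1 and Nr1d2 lay closer together, at 1.01 and 0.821 in Vehicle and 0.994 and 0.775 in AGNHW.

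Per2, a partner of CRY proteins in repression, had 22.0 CPM in Vehicle and 35.1 CPM in Sham (334 and 661 counts). Its ratio was 0.625 (0.546 to 0.714), and its corrected ratio of 0.635 (0.555 to 0.725) also passed the size rule. Per3, the third period gene, had 30.7 CPM in Vehicle and 41.4 CPM in Sham, a ratio of 0.742 (0.660 to 0.833) that did not pass. Per1, the period gene most open to hormone and activity signals, had 195 CPM in Vehicle and 171 CPM in Sham, a ratio of 1.14 (1.08 to 1.20) and 1.01 after correction. Within libraries the Per1 to Per2 quotient was 7.26 (6.58 to 8.02) in AGNHW, 8.87 (7.91 to 9.96) in Vehicle and 4.87 (4.48 to 5.31) in Sham. The quotient of Per2 to Per3, genes of nearly equal transcript length (5833 and 5999 bases), was 0.746 (0.660 to 0.844), 0.715 (0.620 to 0.825) and 0.849 (0.764 to 0.942) in the same libraries, with overlapping intervals.

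**Figure D2:**
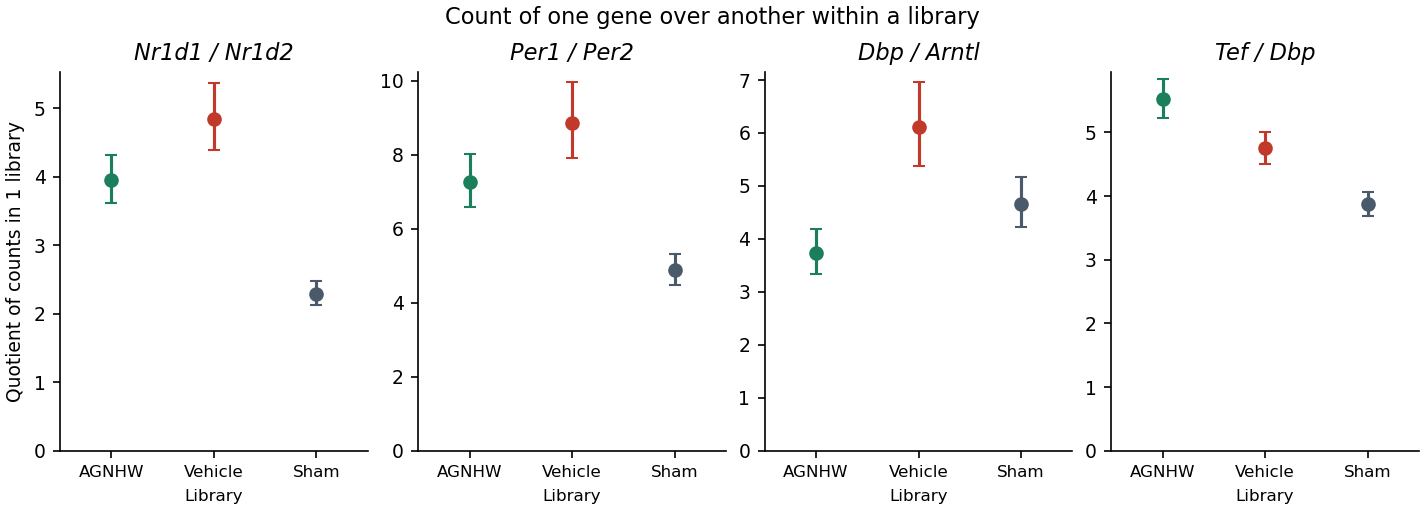
Quotients of the counts of one gene over another within each library, for AGNHW, Vehicle and Sham, with 95% exact counting intervals. Nr1d1 over Nr1d2 and Per1 over Per2 were lowest in Sham (2.29 and 4.87). Dbp over Arntl was lowest in AGNHW (3.74) and higher in Vehicle than in Sham, and length and GC correction turns the order of Vehicle and Sham. Tef over Dbp was highest in AGNHW (5.52), but the corrected AGNHW to Vehicle ratios of Tef and Dbp were nearly equal (0.867 and 0.871).

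Arntl, the activator whose rhythm normally opposes that of Dbp and Nr1d1, had 18.1 CPM in Vehicle and 24.6 CPM in Sham, a ratio of 0.736 (0.632 to 0.857) that did not pass. Its corrected ratio was 0.814 (0.698 to 0.947). Arntl and Nr1d2 therefore had ratios on the same side of 1, with and without correction. Ciart, a repressor of the ARNTL pair, had 33.4 CPM in Vehicle and 27.2 CPM in Sham, a ratio of 1.23 (1.08 to 1.39), and 1.002 (0.885 to 1.14) after correction. Bhlhe41, which competes for E-boxes, had 46.0 and 45.3 CPM in Vehicle and Sham. Its ratio of 1.02 (0.917 to 1.12) fell on the other side of 1 with plain CPM, and was 1.28 (1.15 to 1.41) after correction.

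Dbp, the PAR bZIP output gene, had 110 CPM in Vehicle and 115 CPM in Sham, a ratio of 0.965 (0.904 to 1.03). Its transcript is short and rich in GC (1837 bases, 61.6%), and the corrected ratio was 0.709 (0.665 to 0.756), short of the size rule. Tef, its relative, had 525 CPM in Vehicle and 443 CPM in Sham, a ratio of 1.18 (1.15 to 1.22) and 1.16 after correction. The plot of ratio against transcript length sets the 10 genes beside the trend of all genes, whose median log2 ratio was 0.47 in the tenth with the shortest transcripts and -0.44 in the tenth with the longest.

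**Figure D3:**
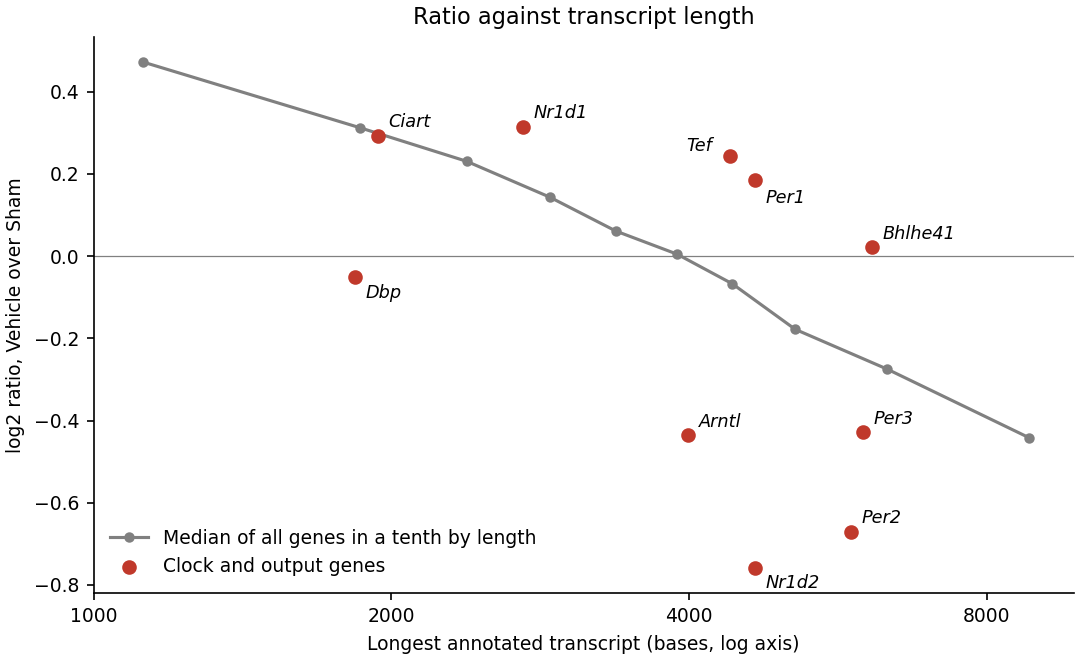
Log2 ratio of Vehicle over Sham against the length of the longest annotated transcript (log axis). Grey points are the medians of all genes of at least 10 CPM in 10 equal bins of length, falling from 0.47 to -0.44, and red points are the clock genes, with Nr1d2 (-0.76), Per2 (-0.67) and Dbp (-0.052) below the line and Tef (0.24) above it.

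By promoter letters, a grouping made after the ratios were seen, the 5 genes with an E-box or its variant in a window (Bhlhe41, Ciart, Nr1d1, Per1 and Tef) had Vehicle to Sham ratios of 1.02 to 1.24. The 4 with neither (Arntl, Dbp, Nr1d2 and Per3) had ratios of 0.589 to 0.965. Per2, at 0.625 and 0.635 after correction, had no window and could not be placed in a class. The corrected ratios were 1.002 to 1.28 in genes with a match and 0.709 to 0.821 in those without. With the correction based on total exon length, Ciart was at 0.999, Nr1d1 at 0.985 and Per1 at 0.993. In AGNHW against Vehicle the classes overlapped, at 0.756 to 1.11 with a match and 0.739 to 1.21 without. In AGNHW against Sham they were 0.928 to 1.13 with a match and 0.641 to 0.890 without, and overlapped after correction, at 0.843 to 1.28 and 0.617 to 0.940. The same grouping of other loop genes gave no such separation, with ratios of 0.820 to 1.16 in Cry1, Cry2 and Rorb, which had such a match, and 0.569 to 1.33 in 6 genes without one. The match is a description of letters and says nothing of binding. Only the promoter windows were searched, and E-boxes elsewhere in these genes were not looked for. Dbp, Nr1d2 and Per3, which had no match, are among the genes described above as driven through E-boxes. The classes therefore cannot tell genes driven through E-boxes from others, and a link between match and ratio was not tested.

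AGNHW was set against Vehicle to describe the clock genes under the remedy. None of them passed the size rule, with 0 of 10 higher, where 4.01% of all genes were higher, and 0 lower, where 2.56% were lower, or 6.57% together. After correction again 0 of 10 passed either way, against 3.39% higher and 1.52% lower of all genes, or 4.92% together. The ratios ran from 0.739 for Dbp to 1.21 for Arntl, with a median log2 ratio of 0.0082 against 0.0020 over all genes. Hlf, a further PAR bZIP gene outside the 10, had a ratio of 1.19 (1.13 to 1.25). After correction it was 1.05 (0.996 to 1.11), an interval that held 1. Over all genes the split was 624 higher and 398 lower, and 808 and 309 with plain CPM.

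Dbp had 81.6 CPM in AGNHW and 110 CPM in Vehicle (1491 and 1680 counts). Its ratio was 0.739 (0.689 to 0.793), and 6.20% of genes had a lower one. The corrected ratio was 0.871 (0.812 to 0.934). Ciart had 25.2 CPM in AGNHW and 33.4 CPM in Vehicle, a ratio of 0.756 (0.665 to 0.859) and 0.842 (0.740 to 0.957) after correction. Tef had 451 CPM in AGNHW and 525 CPM in Vehicle, a ratio of 0.858 (0.832 to 0.885) that hardly moved with correction, to 0.867. Dbp, Ciart and Tef were thus lower in AGNHW than in Vehicle by more than counting error and by less than 1.5-fold.

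Arntl had 21.8 CPM in AGNHW and 18.1 CPM in Vehicle, a ratio of 1.21 (1.03 to 1.41), and its corrected interval of 0.988 to 1.35 held 1. The quotient of Dbp to Arntl counts was 3.74 (3.34 to 4.18) in AGNHW, 6.11 (5.37 to 6.97) in Vehicle and 4.66 (4.22 to 5.17) in Sham, with intervals apart between all 3 libraries. The transcripts of Dbp and Arntl differ in length and GC content, and by the corrected Vehicle to Sham ratios (0.709 for Dbp and 0.814 for Arntl) the order of Vehicle and Sham turns, while AGNHW remains lowest (corrected AGNHW to Sham ratios of 0.617 for Dbp and 0.940 for Arntl). Per2 and Per3 had 25.0 and 33.5 CPM in AGNHW, against 22.0 and 30.7 CPM in Vehicle, with ratios of 1.14 (0.985 to 1.31) and 1.09 (0.964 to 1.23). Nr1d2 had 33.7 CPM in AGNHW and 31.0 CPM in Vehicle, a ratio of 1.09 (0.963 to 1.23) that was 0.944 after correction. With TMM scaling the intervals of these 3 genes held 1, so counting depth did not resolve a difference there. With plain CPM the intervals of Per2 (1.02 to 1.36) and Per3 (1.001 to 1.28) lay above 1, and that of Nr1d2 (0.999 to 1.28) held it. Nr1d1, Per1 and Bhlhe41 had ratios of 0.886, 0.931 and 1.11, and of 0.986, 0.974 and 1.003 after correction.

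The comparison of AGNHW with Sham, which shares a library with each of the others, had 1 clock gene past the size rule, Nr1d2, which was lower. Of all genes 5.47% were lower and 3.32% higher, or 8.79% together, against 1 lower and 0 higher of the 10. The median log2 ratio was -0.14, against -0.00066 over all genes, and 6 of the 10 ratios were under 1. Nr1d2 had 33.7 CPM in AGNHW and 52.6 CPM in Sham, a ratio of 0.641 (0.578 to 0.709), which became 0.775 (0.699 to 0.858) after correction and no longer passed. Dbp took its place, with 81.6 CPM in AGNHW and 115 CPM in Sham. Its ratio was 0.713 (0.667 to 0.762) as scaled and 0.617 (0.577 to 0.659) after correction, where 2.15% of genes had a lower one. Dbp was then the 1 clock gene called, with 0 higher, against 3.2% lower and 2.76% higher of all genes, or 5.96% together.

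Per2 had 25.0 CPM in AGNHW and 35.1 CPM in Sham, a ratio of 0.711 (0.629 to 0.802) that was little changed by correction, at 0.715, and short of the size rule both ways. Per3 had a ratio of 0.808 (0.726 to 0.900). Arntl, at 21.8 CPM in AGNHW and 24.6 CPM in Sham, had a ratio of 0.890 (0.776 to 1.02), whose interval held 1. Ciart had a ratio of 0.928 (0.816 to 1.05), and 0.843 (0.742 to 0.958) after correction, an interval without 1. Tef had a ratio of 1.02 (0.987 to 1.05), which fell on the other side of 1 with plain CPM. Per1 and Nr1d1 had ratios of 1.06 and 1.10, on the other side of 1 after correction (0.988 and 0.994). Bhlhe41 had 51.0 CPM in AGNHW and 45.3 CPM in Sham, a ratio of 1.13 (1.03 to 1.24) and 1.28 (1.17 to 1.41) after correction.

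**Figure D4:**
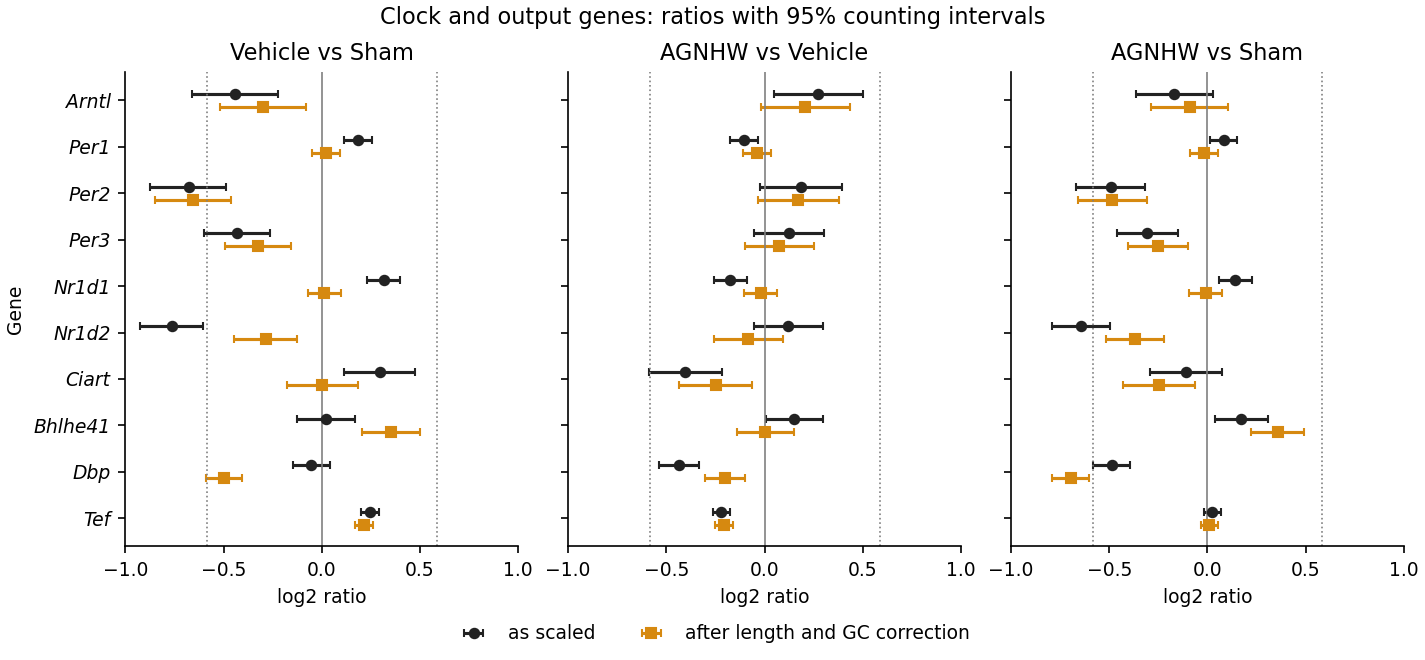
Log2 ratios of the 10 genes in Vehicle vs Sham, AGNHW vs Vehicle and AGNHW vs Sham (first named over second), as scaled (circles) and after length and GC correction (squares), with 95% counting intervals and dotted lines at 1.5-fold. Per2 keeps its place in Vehicle vs Sham with correction, Nr1d2 moves inside the line and Dbp moves beyond it in AGNHW vs Sham.

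The rest of the loop was described from a list of 10 genes, all counted. In Vehicle against Sham 1 of them passed as lower and 0 as higher, where 14.2% and 8.66% of all genes did. The median log2 ratio was -0.26, against 0.012 over all genes, and the corrected median was 0.050. The gene called was Clock, the partner of ARNTL, with 419 counts in Vehicle and 911 in Sham, a ratio of 0.569 (0.506 to 0.640), but 0.963 after correction. In AGNHW against Vehicle and in AGNHW against Sham 0 of 10 passed in either direction, where 6.57% and 8.79% of all genes did. Cry1 and Cry2, the repressor partners of the PER proteins, had Vehicle to Sham ratios of 0.932 (0.782 to 1.11) and 1.16 (1.10 to 1.23). After correction they were 0.866 (0.726 to 1.03) and 1.05 (0.999 to 1.11), and both intervals held 1.

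Of 15 genes for enzymes and cofactors that act on clock proteins, 4 were lower and 0 higher in Vehicle than in Sham, against 14.2% lower and 8.66% higher of all genes. After correction 1 was lower, against 7.16% of all genes. That gene, Sirt1, a deacetylase, had 66 counts in Vehicle and 194 in Sham, a ratio of 0.421 (0.313 to 0.559) and 0.545 after correction. Gsk3b, a kinase that acts on several clock proteins, had a ratio of 0.582 (0.544 to 0.622), and 0.821 after correction. In AGNHW against Vehicle 2 were higher, where 4.01% of all genes were. They were Sirt1 at 1.69 (1.25 to 2.31) and Fbxl21, a ubiquitin ligase subunit, at 1.72 (1.09 to 2.78). Sirt1 alone passed after correction, where 3.39% of all genes were higher. In AGNHW against Sham 1 was higher, Fbxl21, and 1 was lower, the AMP kinase subunit gene Prkaa2, at 0.619 (0.534 to 0.716) and 0.831 after correction, against 3.32% higher and 5.47% lower of all genes. Csnk1d and Csnk1e, the kinases of PER proteins, had Vehicle to Sham ratios of 1.16 and 0.938, and of 1.06 and 0.793 after correction.

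Among 10 further clock-controlled outputs, 2 were higher and 1 lower in Vehicle than in Sham, 0 of either in AGNHW against Vehicle, and 1 higher in AGNHW against Sham. Of all genes, 8.66% were higher and 14.2% lower in Vehicle than in Sham. In AGNHW 4.01% were higher and 2.56% lower than in Vehicle, and 3.32% higher than in Sham. After correction 1 output was higher and 0 lower in Vehicle than in Sham, against 4.54% higher and 7.16% lower of all genes. Cdkn1a, a cell cycle inhibitor that p53 and glucocorticoids also induce, was the one higher in both comparisons with Sham, at 4.90 (4.38 to 5.49) in Vehicle and 4.21 (3.77 to 4.72) in AGNHW. Nampt, an enzyme of NAD synthesis with E-boxes known in mouse, had a Vehicle to Sham ratio of 0.608 (0.534 to 0.691), and 0.872 after correction. Usp2, a deubiquitinase whose rhythm follows that of Dbp in many mouse tissues, had ratios of 1.17 for Vehicle and 1.05 for AGNHW against Sham.

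Target genes of the 2 signals that reach Per1 in mouse, glucocorticoids and neuronal activity, were counted in the same libraries. Of 12 glucocorticoid-induced genes compared, 7 were higher and 1 lower in Vehicle than in Sham (median log2 ratio 0.85), among them Fkbp5 with a ratio of 2.65 (2.46 to 2.86). Of 16 immediate early genes, 11 were lower and 0 higher (median -0.81), among them Egr1 at 0.469 (0.442 to 0.497). Over all genes 8.66% were higher and 14.2% lower. After correction the counts were 6 higher and 0 lower of 12, and 0 higher and 13 lower of 16, beside 4.54% higher and 7.16% lower of all genes. Cdkn1a and Tsc22d3 are in the glucocorticoid list and also among the 10 clock-controlled outputs above. In AGNHW against Sham the uncorrected counts were 3 higher and 0 lower of 12, and 0 higher and 8 lower of 16, beside 3.32% higher and 5.47% lower of all genes. In AGNHW against Vehicle they were 0 higher and 2 lower of 12, and 3 higher and 0 lower of 16. Of all genes 4.01% were higher and 2.56% lower there. Both lists were chosen with earlier results of these data known, so their counts are a description only. Per1 itself had ratios to Sham of 1.14 in Vehicle and 1.06 in AGNHW, and the part of either signal in the clock genes was not tested.

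Whether reads were counted by strand is unknown from these sources, so reads of overlapping genes cannot be told apart. In GENCODE vM21, Nr1d1 shares 263 exon bases (8.55% of its own) with Thra on the opposite strand, and Dbp shares 539 with Sphk2. Thra, a thyroid hormone receptor gene, had 18805 counts in Vehicle and 16202 in Sham, a ratio of 1.44 (1.41 to 1.47), and 1.41 in AGNHW against Sham. After correction these ratios of Thra were 1.11 and 1.24. Sphk2, a sphingosine kinase gene, had ratios of 1.23 in both comparisons with Sham, and after correction 1.04 in Vehicle and 1.13 in AGNHW. Bhlhe41 shares 1280 bases with Gm43909, which had 17 to 22 counts in a library.

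Genes with the pattern most like that of Dbp were sought by the distance between the pair of log2 ratios to Sham, over 3 libraries and among 9828 named genes of at least 10 CPM. These log2 ratios were not corrected for length and GC content, and correction moved that of Dbp in Vehicle from -0.052 to -0.496. The nearest were Slc17a5, Sarnp, Serpinh1, Vwa5b1 and Adgrl4, at distances of 0.057 to 0.068, and 8 genes lay within 0.1. For Arntl the nearest were Tet3, Atp8b2, Pik3r1, Tnrc18 and Epha7, at 0.0038 to 0.013, and 409 genes lay within 0.1.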

How the data were processed

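Per the labels and the design text, brain RNA was taken up in TRIzol and sequenced on an Illumina HiSeq. The files deposited hold raw counts of reads for each gene symbol. TopHat2 2.0.12, HTSeq 0.6.0, Bowtie2 2.2.3 and the build mm9 are named per the submitters' processing notes, with no settings. No gene summed to under 21 counts over the 3 libraries.

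Libraries were grouped by title and scaled with TMM (edgeR 4.0.16, R 4.3.3). Ratios carry exact conditional binomial intervals and levels exact Poisson intervals, which cover counting error only, because each group has 1 library. The deposited values count reads and not molecules, which these intervals do not allow for. Log2 ratios for medians and distances used a prior count of 5. The correction fitted a polynomial of degree 3 in log2 length and GC content of the longest GENCODE vM21 transcript, by least squares over genes of at least 10 CPM. Lengths were found for 17569 of 17992 symbols, and exon bases per gene were the union of annotated exons. The ratio code was checked on simulated counts.

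Alternatives were plain CPM, size factors of DESeq2 1.42.0, totals without pituitary and red cell genes, other filters, limits and prior counts, and the correction. Named genes were all 10 clock genes, the other loop genes, members of the other lists and the 5 nearest to Dbp and to Arntl. The clock genes and all lists were chosen with earlier results of these data known, and 2 listed genes are not reported here. Intervals used scipy 1.17.1 under Python 3.11.15, and figures matplotlib 3.10.9.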

Additional observations from a re-analysis of the deposited data

How the results depend on the processing

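No paired analysis was possible because each group had 1 library and the labels give no replicate numbers. The clock genes past the 1.5-fold limit in Vehicle against Sham numbered 2, and 0 with a limit of 2-fold; in AGNHW against Sham the 1 also became 0. After length and GC correction 1 (Per2) was left in Vehicle against Sham, also with total exon length in place of transcript length, a choice made after the data were seen, and the median log2 ratio there moved to -0.14. The remaining alternatives left the clock gene counts as they were; in AGNHW against Sham the correction gave 1 gene, Dbp in place of Nr1d2. Size factors of DESeq2 and totals without pituitary and red cell genes kept all 30 clock gene ratios within their intervals, plain CPM kept 26 and the correction 15. Over all genes, Vehicle against Sham gave 3555 calls, 1945 with a minimum of 10 CPM, 1018 at 2-fold and 1782 after correction. AGNHW against Vehicle gave 1022, 210 with that minimum and 291 at 2-fold, and AGNHW against Sham 1368, 432, 371 and, after correction, 908. The cause of these changes was not tested. With 1 library per group, the spread between animals is unknown.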
